A study of Homo sapiens with 6 samples.

Results

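Distal transcribed elements lying close together were examined in K562, an established human leukaemia cell line. An element was a peak called by dREG, a machine-learning caller of transcribed regulatory DNA that works on run-on reads from both strands. Peaks of the list made by the quick run-on protocol on 1M cells (qPRO-seq 1M) were taken as distal when no transcript start annotated by GENCODE release 29 lay within 500 bp of them. Neighbouring distal peaks on chromosomes 1 to 22 and X were chained across gaps of up to 12.5 kb, and chains of 5 or more peaks were kept. This gave 249 clusters with 1590 member peaks, which is 9.09% of the 17501 distal peaks and 4.16% of all 38177 peaks of that list. The remaining 15911 distal peaks stood alone or in shorter chains, and are called other distal peaks.

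The study compared 3 groups of 2 biological replicate libraries of untreated K562 cells. The first came from the published PRO-seq protocol with 3 affinity purifications (PRO-seq 1M), the second from the quick protocol with 1 purification on the same input (qPRO-seq 1M), and the third from 250k cells and the quick protocol (qPRO-seq 250k). The 1M libraries were amplified for 11 PCR cycles and the 250k libraries for 14. Each group had 1 deposited peak list named for both replicates, so replicate error cannot be given and groups were compared without p-values. The lists hold no read counts, and the depth behind them is unknown; they differed in length, with 24707, 38177 and 15562 peaks on these chromosomes. Intervals in parentheses are 95% intervals for counting error only, and they are narrower than repeated experiments would give because peaks of one cluster are neighbours. The labels call K562 lymphoblastoid: of 10 erythroid marker genes, 8, 10 and 8 had a peak within 500 bp of a transcript start in the 3 lists in that order, against 2, 2 and 1 of 8 B lymphoid, 1, 2 and 1 of 7 T lymphoid and 3, 3 and 1 of 7 myeloid markers.

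Run-on sequencing labels the RNA held by polymerases at work, so it records short-lived RNAs made at enhancers as well as at genes. Enhancers are transcribed in both directions from a small core, and several of them in a row near one gene are often called enhancer clusters or super-enhancers. In red cell precursors such rows are known at globin genes and at genes of heme synthesis. Transfer RNA genes are also transcribed, by RNA polymerase III, from promoter elements inside the gene that are called the A box and the B box. They are short, occur in many near-identical copies and often lie in groups.

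The name of the set fitted its members in part. The GENCODE release 29 annotation used here holds 0 nuclear tRNA genes, so a peak at a tRNA gene counted as distal unless another annotated start lay nearby. RefSeq lists 443 nuclear tRNA genes on these chromosomes, and 138 of them (31.2%) lay inside the spans of 31 of the 249 clusters. For 3 of these 138 genes the whole body lay in a RefSeq promoter window, and their sequences (RefSeq, GRCh38) are given here because the largest clusters lay at such genes. Capitals mark the letters TNGNNNAG, the first part of the A box, and GTTCNANNC at the B box; the letters were loosened after the sequences were seen. The strand printed is the one that carries these letters.
TRI-AAT8-1 (chr6:27668583-27668656, plus strand): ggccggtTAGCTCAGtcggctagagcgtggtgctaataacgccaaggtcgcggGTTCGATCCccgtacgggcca
TRT-TGT6-1 (chr5:181191687-181191758, minus strand): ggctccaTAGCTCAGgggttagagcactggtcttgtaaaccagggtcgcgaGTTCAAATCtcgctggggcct
TRP-TGG3-5 (chr16:3188094-3188165, plus strand): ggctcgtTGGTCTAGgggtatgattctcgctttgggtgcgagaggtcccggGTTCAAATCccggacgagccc
The isoleucine gene TRI-AAT8-1 lay in the ninth-largest cluster and the threonine gene TRT-TGT6-1 in the fourth-largest, and both had a peak within 100 bp in all 3 lists. The qPRO-seq 1M peak at TRI-AAT8-1 was a cluster member. That at TRT-TGT6-1 lay within 500 bp of an annotated start and so was not a member. The proline gene TRP-TGG3-5 lay in the eleventh-largest cluster and had a peak within 100 bp in none of them, although both boxes were present. Of 14 tRNA genes that lay wholly in a RefSeq promoter window anywhere, all 14 held the B box letters and 13 held those of the A box. Searched on both strands, the A box letters occurred in 84.8% and the B box letters in 7.46% of all 34961 RefSeq promoter windows, each of 300 bases. Such a window is longer than a tRNA gene and offers more places for a match, so these shares and the counts at tRNA genes are not on equal terms.

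Clusters were mostly small. Exactly 5 peaks were held by 125 clusters, 6 by 50, 7 by 30, 8 by 14 and 9 by 11, and 19 clusters held between 10 and 21 peaks with 244 members in all. Spans ranged from 1.66 kb to 82.95 kb with a median of 16.66 kb and quartiles of 9.8 and 22.7 kb. Together the spans came to 4.30 Mb, of which the member peaks covered 693.58 kb. A neighbouring distal peak lay within 20 bp of 52.3% of the members and 18.5% of the other distal peaks; the chaining rule selects for near neighbours, so these shares are a description only. When members within 500 bp of one another were joined inside the clusters already formed, a cluster held a median of 4 separate regions. By this count 71 clusters still held 5 or more and 46 held 1 or 2. The limits of the rule were crowded as well, with 314 chains of 4 peaks just outside and 125 of 5 just inside. A gap limit of 12 kb would have left 237 clusters and one of 13 kb 258, and 22 clusters had a gap above 12 kb.

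**Figure D1:**
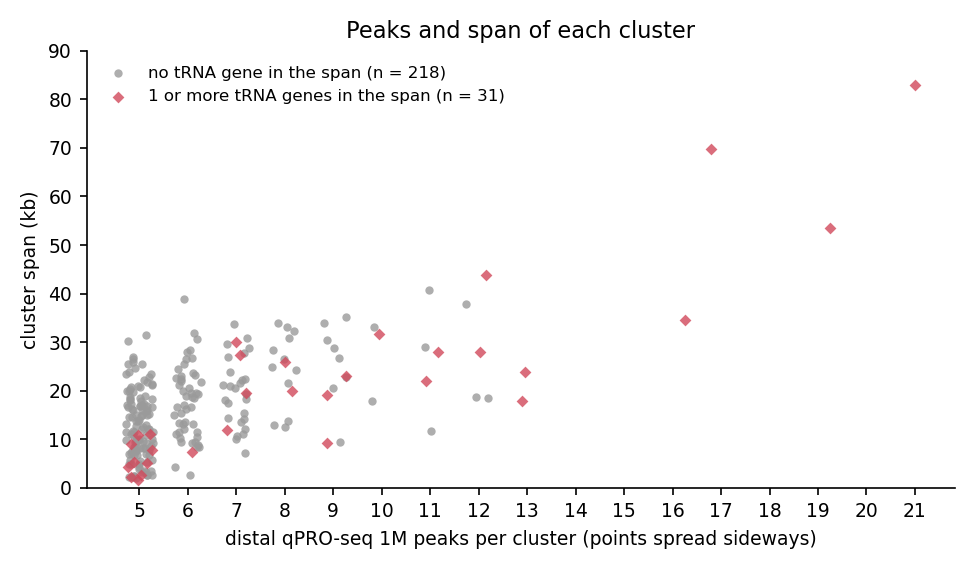
Number of distal qPRO-seq 1M peaks (x axis, points spread sideways within each whole number) and span in kb (y axis) of each of the 249 clusters, with clusters that hold a tRNA gene as red diamonds (31) and the others as grey circles (218). Every cluster of 13 or more peaks is a red diamond, and the clusters of 5 peaks are mostly grey.

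The largest clusters lay at tRNA genes. Of the 11 clusters with 12 or more peaks, 8 held a tRNA gene, and so did 11 of the 19 with 10 or more peaks, compared with 10 of the 125 with exactly 5. The largest held 21 peaks over 82.95 kb of chromosome 6 (chr6:27568311-27651260, GRCh38 throughout), 95.2 kb from the nearest protein-coding start, that of the zinc finger gene ZNF184. It held 9 tRNA genes, among them genes for lysine, leucine, threonine and initiator methionine, and 13 of its peaks lay within 100 bp of one. PRO-seq 1M overlapped 15 of the 21 peaks and qPRO-seq 250k overlapped 12. All 9 tRNA genes had a peak in both quick-protocol lists and 8 had one in PRO-seq 1M.

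Histone gene starts lay within the spans of the next 2. The second cluster (chr6:26283731-26337190) held 19 peaks, 13 tRNA genes and the start of the histone gene HIST1H4H, with 15 members in PRO-seq 1M and 10 in qPRO-seq 250k. The third (chr6:27145641-27215310), with the start of the histone gene HIST1H2BK inside, held 17 peaks and 7 tRNA genes, with 12 and 8 members in those lists. A cluster of 12 peaks (chr6:27667021-27695040) whose nearest protein-coding start, that of HIST1H2BL, was 112.9 kb away held 6 tRNA genes, TRI-AAT8-1 among them, and 9 and 8 of its members were overlapped.

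Other large tRNA clusters lay beside genes with no peak at their starts in any list. The cluster of 16 peaks on chromosome 5 (chr5:181158851-181193470, 8 tRNA genes) lay 3.91 kb from the odorant receptor gene OR2V2. That of 13 peaks on chromosome 11 (chr11:59537161-59561110, 7 tRNA genes) lay 22.2 kb from OR4D9, and that of 12 peaks on chromosome 16 (chr16:3150261-3194050, 14 tRNA genes) lay 10.2 kb from OR1F1, both also odorant receptor genes. A cluster of 13 peaks (chr6:28474361-28492200, 3 tRNA genes) lay 23.6 kb from the glutathione peroxidase gene GPX6. For these 4 clusters in that order PRO-seq 1M overlapped 12, 10, 9 and 11 members and qPRO-seq 250k 8, 8, 7 and 9. The clusters at ZNF184, HIST1H4H and GPX6 had 11, 10 and 9 members in both other lists; 9 was also reached at C2orf42 and SPEN.

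The largest clusters without a tRNA gene were 3 of 12 peaks and 3 of 11 peaks. The 3 of 12 and the shortest of those with 11 spanned between 11.66 and 37.86 kb. A cluster of 12 peaks on chromosome 1 (chr1:15831721-15850510) lay for 72.8% of its span in the antisense gene FLJ37453 and included the start of SPEN, a transcriptional corepressor. PRO-seq 1M overlapped 11 of its 12 members, qPRO-seq 250k overlapped 10, and no member was missed by both. A cluster of 12 peaks on chromosome 2 (chr2:70131731-70150200), 31.8 kb from the start of C2orf42, had 9 members in each of the other lists, and they were the same 9. A cluster of 11 peaks within the body of the long non-coding gene LINC02320 (chr14:101704301-101715960) lay 45.8 kb from PPP2R5C, a regulatory subunit of protein phosphatase 2A, with 8 and 6 members overlapped. Its best-scored member stood at the percentile 99.4 of the scores of the whole list. A cluster of 12 peaks near IFITM3 (chr11:329181-367040), an interferon-induced antiviral gene, differed: 7 members were overlapped by PRO-seq 1M, 3 by qPRO-seq 250k and 1 by both. IFITM3 itself had no peak at its start in any list.

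**Figure D2:**
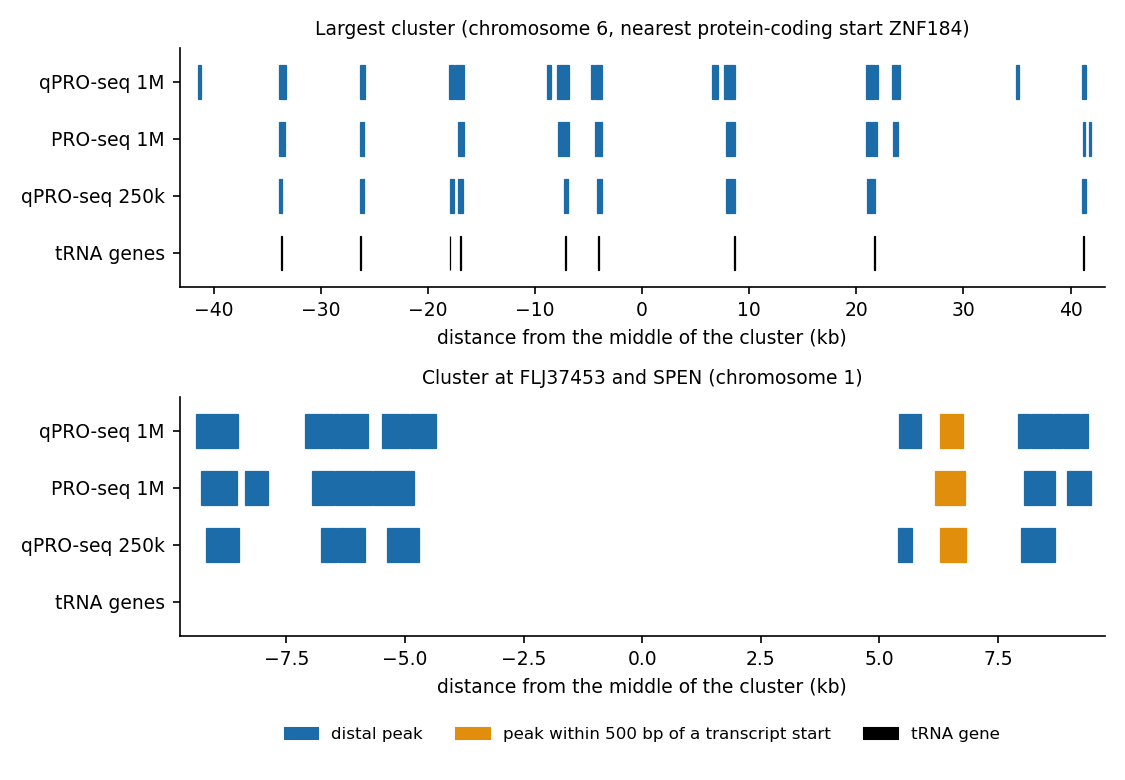
Peaks of the 3 lists and tRNA genes (rows) along the largest cluster and along the cluster at FLJ37453 and SPEN, against distance from the middle of the cluster in kb; blue bars are distal peaks, orange bars peaks with an annotated start within 500 bp, black bars tRNA genes, and peaks 20 bp apart merge at this scale. In the upper panel each of the 9 tRNA genes lies under or beside a qPRO-seq 1M peak; in the lower panel there is no tRNA gene and the lists share the same 2 groups of peaks.

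Clusters also lay near one another. Another cluster stood within 1 Mb of 111 of the 249. A stretch of chromosome 6 (chr6:26121571-28492200) held 14 clusters with 138 members, and 13 of the 14 held tRNA genes, 62 in all; PRO-seq 1M overlapped 103 of these members and qPRO-seq 250k 82. This stretch holds the main human histone gene cluster. Elsewhere on chromosome 6 a run of 4 clusters held no tRNA gene (chr6:15079051-16270780). One included the start of GMPR and another lay within its gene body, while the others lay 138.5 kb from JARID2 and 213.2 kb from MYLIP, their nearest protein-coding starts. In this run 12 of 25 members were in PRO-seq 1M and 9 in qPRO-seq 250k. A run of 3 clusters with no tRNA gene on chromosome 10 (chr10:71860361-72322030) included the start of DDIT4 in one span, with the others 8.99 kb from PSAP and 14.8 kb from DNAJB12; 19 and 16 of their 27 members were overlapped. By chromosome, members made up 18.9% of the distal peaks on chromosome 6 (33 clusters), 15.4% on chromosome 19 (20 clusters) and 2.33% on chromosome 13 (1 cluster), compared with 9.09% over all.

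Members at tRNA genes were held by the other lists more often than the rest of the members. A tRNA gene lay within 100 bp of 143 members (8.99%) and of 107 other distal peaks (0.672%); over all distal peaks the share was 1.43%. Their centres lay a median of 71.5 bp from the middle of the tRNA gene. PRO-seq 1M overlapped 89.5% of the members at tRNA genes and 58.9% of the other members, a difference of 30.6 percentage points (24.0 to 35.4). For qPRO-seq 250k the shares were 77.6% and 39.0%, a difference of 38.6 points (30.7 to 45.2). Members at tRNA genes also had higher scores, with a median at the percentile 62.4 compared with 42.3. Among other distal peaks at tRNA genes the shares were 78.5% and 63.6%, which was 11.0 points (1.93 to 20.6) and 14.1 points (2.73 to 25.3) below the members at tRNA genes.

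Taken gene by gene, a peak within 100 bp was found in PRO-seq 1M at 81.9% of the 138 tRNA genes inside clusters and at 41.3% of the 305 elsewhere; 54.0% of all 443 had one. In qPRO-seq 250k it was found at 71.7% and 37.4%, and at 48.1% of all. The qPRO-seq 1M list, which set the clusters, had peaks at 91.3% and 50.5% (63.2% of all), so the inside genes were chosen in part by having a peak. Among genes with a qPRO-seq 1M peak, those inside clusters had a PRO-seq 1M peak more often by 9.81 points (1.22 to 17.99), and a qPRO-seq 250k peak by 7.0 points (-3.39 to 16.9), an interval that includes 0. All 3 lists had a peak at 93 of the 138 genes inside and at 103 of the 305 outside. How reads were placed among near-identical tRNA copies is not given in the sources used here, and its part in these shares was not tested.

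**Figure D3:**
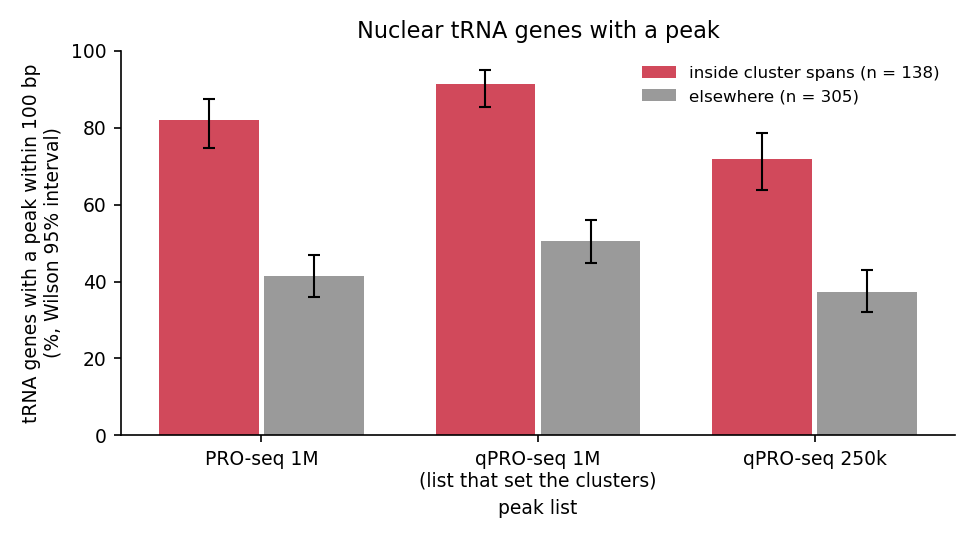
Share of nuclear tRNA genes with a peak within 100 bp (y axis, percent, bars from 0) in each of the 3 peak lists (x axis), for the 138 genes inside cluster spans (red) and the 305 elsewhere (grey); error bars are Wilson 95% intervals for counting error. The red bar is higher in each list, with 81.9% against 41.3% in PRO-seq 1M and 71.7% against 37.4% in qPRO-seq 250k.

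By the amino acid carried, clusters held 16 of 26 tRNA genes for serine, 14 of 28 for valine, 13 of 32 for leucine, 11 of 27 for lysine, 11 of 20 for threonine, 11 of 20 for proline and 10 of 26 for arginine. They held none of the 29 cysteine genes, although 21 of these had a qPRO-seq 1M peak. Tryptophan genes differed between lists: of 7, a peak was found at 5 in PRO-seq 1M and at 6 in qPRO-seq 1M, and at 0 in qPRO-seq 250k. These 2 amino acids were singled out after their values were seen.

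The overlap of all members with the other lists was then set beside that of the other distal peaks. PRO-seq 1M overlapped 980 of the 1590 members (61.6%, 59.2 to 64.0) and 40.5% of the other distal peaks, with 42.4% over all distal peaks. The list of qPRO-seq 250k overlapped 675 members (42.5%, 40.0 to 44.9) and 22.5% of the others, with 24.4% over all. Both lists overlapped 594 members (37.4%) and 18.6% of the others, with 20.3% over all, and neither overlapped 529 members (33.3%) and 55.6% of the others. Members lay somewhat higher in score, with a median at the percentile 44.5 of the list compared with 39.1, so the comparison was repeated within 10 score groups of equal size. The difference was then 17.8 percentage points (15.55 to 19.97) for PRO-seq 1M and 17.3 points (15.2 to 19.5) for qPRO-seq 250k, and members were the higher set in all 10 score groups for both lists. With peaks within 500 bp joined first it fell to 11.5 and 10.9 points, and with an overlap of at least 50% of both peaks to 10.5 and 10.8. With peaks at tRNA genes taken out before chaining, an alternative chosen after seeing the data, it was 16.5 and 14.8 points.

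**Figure D4:**
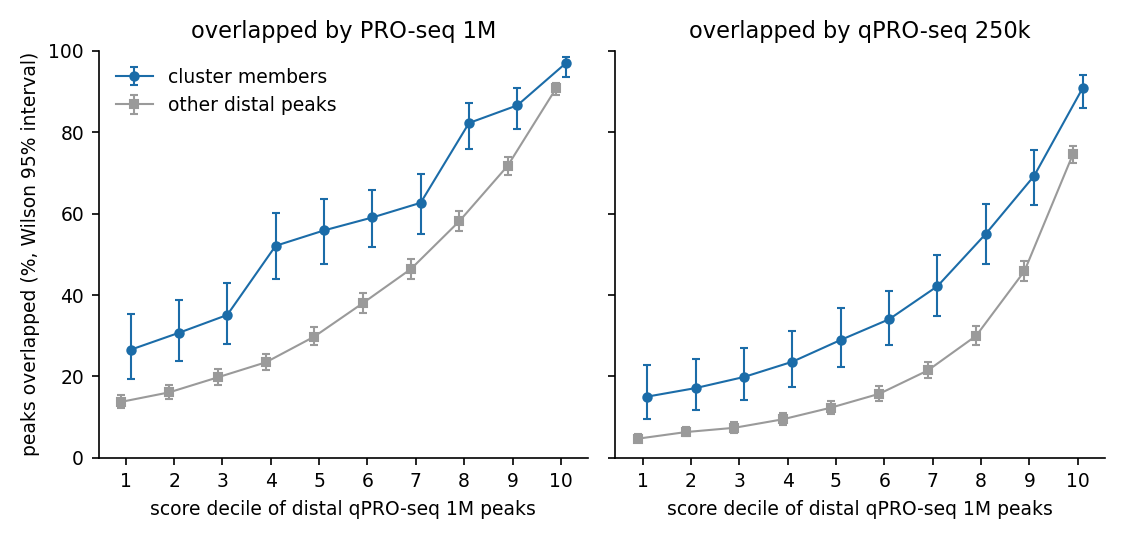
Share of distal qPRO-seq 1M peaks overlapped by PRO-seq 1M (left) and by qPRO-seq 250k (right), in percent with Wilson 95% intervals (y axis), in 10 groups of rising score (x axis), for cluster members (blue circles) and other distal peaks (grey squares). Members are higher in each group, from 26.5% against 13.7% in the lowest to 96.9% against 90.7% in the highest for PRO-seq 1M, and from 15.0% against 4.70% to 90.8% against 74.5% for qPRO-seq 250k.

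The share rose with the number of peaks in a chain before the threshold of 5 was reached. Peaks standing alone were overlapped by PRO-seq 1M in 32.7% of cases, peaks in chains of 2, 3 and 4 in 44.5%, 50.3% and 54.9%, and members of clusters of 5 and 6 in 58.6% and 55.7%. For qPRO-seq 250k the same series was 16.7%, 25.3%, 30.5%, 33.4%, 39.8% and 35.3%. The intervals of chains of 4 and of clusters of 5 overlapped in PRO-seq 1M (52.1 to 57.6, and 54.7 to 62.4). Clusters that held a tRNA gene had 282 members, of which 75.2% were in PRO-seq 1M and 61.0% in qPRO-seq 250k. The 218 clusters without one had 1308, of which 58.7% and 38.5% were in those lists.

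Nearly every cluster had some member in PRO-seq 1M, and few had all. At least 1 member was overlapped in 242 of 249 clusters by PRO-seq 1M and in 218 by qPRO-seq 250k; all members were overlapped in 16 and in 2. The 16 included a cluster of 9 peaks with the start of KLF9, a Krüppel-like transcription factor, inside its span, clusters of 7 with the starts of IRF2BP2 and NQO2 inside, one of 7 that lay 17.2 kb from FGD2, and one of 5 at GYPC. Of the 2 clusters with all members in all 3 lists, each of 5 peaks, one lay 14.7 kb from GNGT2. It held the tRNA gene TRQ-TTG1-1, with 2 of its peaks within 100 bp of that gene. The other lay within the non-coding gene MIR3681HG, 430.1 kb from the nearest protein-coding start (TRIB2). The 7 clusters with no member in PRO-seq 1M held 5 or 6 peaks. Starts of NSMAF, PTBP1, PRKAR2B, FOXK1 and CAV2 lay inside 5 of them, and the other 2 lay 112.4 kb from PIK3R1 and 123.6 kb from CDC42EP3. These were named after their values were seen.

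The same rule applied to the other lists gave fewer clusters, 63 from PRO-seq 1M and 25 from qPRO-seq 250k, which had 7885 and 4125 distal peaks. Of the 249 clusters, 55 (22.1%) shared ground with a PRO-seq 1M cluster and 23 (9.24%) with a qPRO-seq 250k cluster; seen from the shorter lists, these were 55 of 63 (87.3%) and 23 of 25 (92.0%). Ground was shared with both by 19 clusters, of which 8 held a tRNA gene. When each list was reduced to its 15562 best-scored peaks, 12 qPRO-seq 1M clusters were left, 41.7% of which shared ground with PRO-seq 1M and 58.3% with qPRO-seq 250k. A gap limit of 5 kb gave 110 clusters, of which 12.7% and 3.64% shared ground. With peaks at tRNA genes taken out the shares were 16.2% and 5.70%.

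Members lay between GENCODE genes more often than the other distal peaks did. Of the members, 61.3% were intergenic, 31.7% intronic and 7.04% in an exon, compared with 42.4%, 48.3% and 9.21%, and the intergenic share differed by 18.8 points (16.3 to 21.3). The annotation used here holds no nuclear tRNA gene, so peaks at tRNA genes could count as intergenic. Such peaks were 8.99% of the members and 0.672% of the other distal peaks, and their part in the difference was not tested. Seen as whole spans, 53 clusters lay within 1 GENCODE gene body and 75 outside every GENCODE gene body. Starts were close by: the nearest protein-coding start was a median of 5.00 kb from the span, 94 clusters included one, and 50 were more than 50 kb away. A peak within 500 bp of a GENCODE start lay inside 95 spans, and 116 spans held no GENCODE start. Such spans can still hold tRNA genes, as those nearest to GPX6 and OR4D9 did, or RefSeq starts, as that nearest to MBNL1 did. The nearest protein-coding gene had a peak at its start in PRO-seq 1M for 203 clusters, in qPRO-seq 1M for 203 and in qPRO-seq 250k for 176. These were 81.5%, 81.5% and 70.7% of the clusters, compared with 52.9%, 54.5% and 44.0% of all protein-coding genes. The distances and start peaks of the genes nearest to other distal peaks are not given here.

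Protein-coding genes with a transcript start within 100 kb of a cluster numbered 789, which is 3.97% of 19864. A start peak in PRO-seq 1M was found at 531 of them (67.3%, 64.0 to 70.5), compared with 61.1% of the genes that had another distal peak but no cluster within 100 kb and 52.9% of all. The difference from the former was 6.25 points (2.80 to 9.53). It changed direction when peaks within 500 bp were joined before chaining (57.5% near clusters, 60.8% near other distal peaks), and with a gap limit of 5 kb the shares were 63.6% and 61.3%. In qPRO-seq 250k the 3 shares were 59.1%, 51.1% and 44.0%, and in qPRO-seq 1M 68.7%, 62.2% and 54.5%.

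Of 150 genes in 9 lists chosen for this cell line, 18 had a cluster within 100 kb, near 23 clusters. The lists were set with earlier results of these data known, so their shares are a description only. By list these were 4 of 20 transcription factor genes of red cells and blood progenitors, 2 of 20 globin and heme genes, 2 of 20 red cell membrane genes, 2 of 12 iron genes, 2 of 18 megakaryocyte and platelet genes, 3 of 18 genes of growth and kinase signalling, 1 of 14 AP-1 and immediate early genes, 0 of 16 B and T lymphoid genes and 2 of 12 myeloid genes. The share over all protein-coding genes was 3.97%, and over those with a qPRO-seq 1M start peak it was 5.01%. No globin gene was among them, nor was GATA1, TAL1 or MYC.

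**Figure D5:**
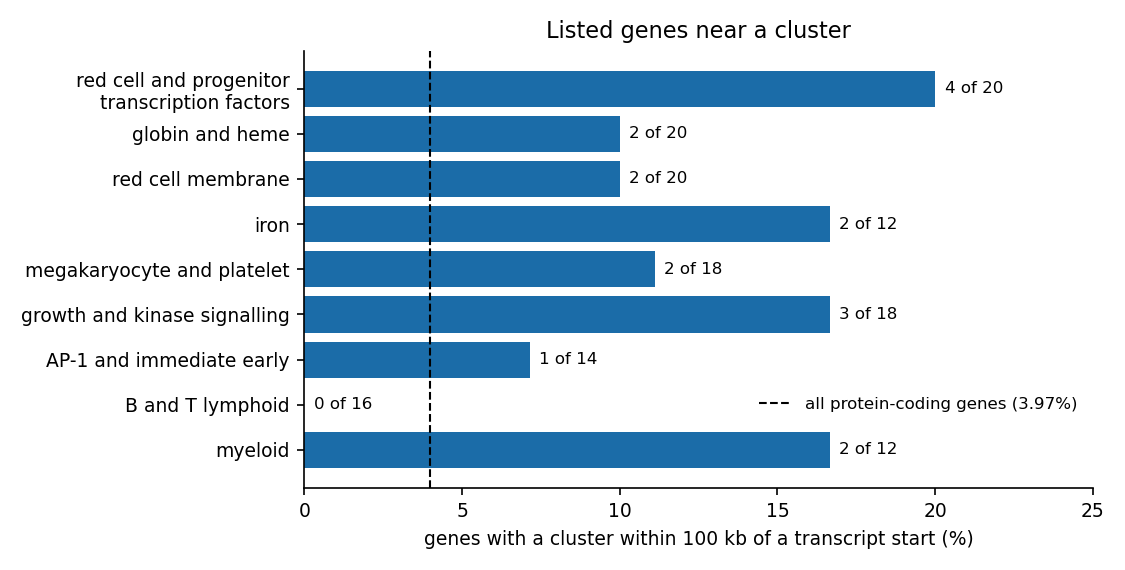
Share of the genes of each of the 9 lists (rows) with a cluster within 100 kb of a transcript start (x axis, percent, bars from 0), with counts beside the bars; the dashed line is the share of all protein-coding genes, 3.97%. Counts are small, from 0 of 16 for B and T lymphoid genes to 4 of 20 for transcription factor genes. The lists were set with earlier results of these data known.

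Among genes of heme and iron, the cluster at SLC25A37, which encodes mitoferrin, the importer of iron into mitochondria for heme synthesis, was the largest near any listed gene. It held 9 peaks over 35.21 kb (chr8:23495451-23530660), with 6 regions after joining at 500 bp, and 2 further peaks at annotated starts lay in the span. PRO-seq 1M and qPRO-seq 250k each overlapped 5 members, 4 of them the same. The member with the highest score lay at the percentile 99.8 and was in both lists. The gene for biliverdin reductase, BLVRB, had a cluster on each side, 24.2 kb away at PRX (7 peaks, 6 in PRO-seq 1M and 5 in qPRO-seq 250k, an order kept for the pairs of counts that follow) and 22.1 kb away within SPTBN4 (5 peaks over 2.1 kb, 4 and 3 overlapped). The nearest cluster to the ferritin light chain gene FTL was 63.7 kb away at TULP2 (2 of 5 in each list). HFE, an iron regulator, lay 28.6 kb from the cluster at HIST1H2BC (4 of 5 in each).

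Of the transcription factor genes, CBFA2T3, a corepressor of red cell precursors, had 2 clusters: one of 5 peaks that included a start of the gene (chr16:88972551-88979370, 3 and 3 overlapped) and one of 8 peaks 14.7 kb away (chr16:88991901-89004920, 7 and 5). Its own start had a peak in PRO-seq 1M and qPRO-seq 1M and none in qPRO-seq 250k. Among the listed genes near clusters, LMO2, GYPC, HFE and CD9 showed the same, and CSF3R had a start peak in PRO-seq 1M only. A cluster of 7 peaks lay entirely within IKZF1, which encodes the zinc finger factor Ikaros (chr7:50332651-50360410, 2 and 3). LMO2, an adaptor that joins TAL1 to GATA factors, had a cluster of 5 peaks 34.9 kb away in no gene body (chr11:33927231-33945120, 2 and 3). LYL1, a relative of TAL1, had one of 6 peaks 49.6 kb away, next to the immediate early gene IER2 (chr19:13152711-13168070, 6 and 3).

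At red cell membrane genes, 5 peaks lay at the start of GYPC, the gene for glycophorin C (chr2:126644581-126658410), all of them in PRO-seq 1M and 2 in qPRO-seq 250k. A cluster of 6 peaks lay within ANK1, the gene for erythrocyte ankyrin (chr8:41812641-41829300, 5 and 3). The platelet gene GP1BB and the tetraspanin gene CD9 each had a cluster of 5 peaks, 78.6 kb and 91.1 kb away (4 and 1, 4 and 2). The GP1BB cluster was nearer to SEPT5 and the CD9 cluster lay mostly in TNFRSF1A.

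Of the growth genes, the kinase gene PIM1 had 2 clusters of 6 peaks, one at its start (chr6:37168761-37192390, 2 and 2 overlapped) and one 57.8 kb away (chr6:37102091-37112410, 3 and 5), the latter with more members in qPRO-seq 250k than in PRO-seq 1M. The phosphatase gene PTPN1 also had 2, of 6 and 5 peaks at 26.0 kb and 69.0 kb (4 and 4, 4 and 1). The cluster nearest to the start of BCL2L1, an inhibitor of cell death, was 46.1 kb from it (5 peaks, 4 and 0). Its span lay for 80.3% in that gene, but its members at chr20:31661511-31662910, the best-scored among them, were intergenic. The protein-coding start nearest to this cluster was that of COX4I2. JUND, an AP-1 subunit, had its start inside a cluster of 6 peaks (chr19:18279321-18304910, 5 and 3), with a second of 6 peaks at GDF15 82.7 kb away (5 and 4). The 2 myeloid genes were CSF3R, 80.5 kb from a cluster of 6 peaks at STK40 (4 and 4), and ELANE, 29.9 kb from 6 peaks at PTBP1 (0 and 1). The STK40 cluster lay for 89.6% of its span in that gene, with 3 members intronic and 3 intergenic. The start of ELANE had a peak in none of the 3 lists.

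Transcript starts that the GENCODE release 29 annotation used here does not hold touched few members. A start in RefSeq lay within 500 bp of 56 members (3.52%) and of 3.36% of the other distal peaks, and 22 members held 25 such starts. Most of the 25 were of long non-coding RNA genes, but starts of the protein-coding genes IRF2BP2, KDM6B, NCOA1, CTDSP1 and ZDHHC11B were among them. The IRF2BP2 start lay in a member of the cluster of 7 peaks named above. The 250 bases before 4 of the 25 starts, all 4 of long non-coding RNA genes, are given from RefSeq (GRCh38). They serve as examples of the DNA at members of clusters with and without tRNA genes. Each window covers a member only in part, and some matches lie outside it. Capitals mark matches to short motifs on either strand, which may overlap. The GATA motif, bound by red cell factors, was searched as AGATAA and, with the other first base, as TGATAA. The ETS motif was searched as CCGGAA and the SP motif, common in promoters, as GGGCGG. The CCAAT motif was searched by the letters of its name and the TATA motif as TATAAA. The AP-1 motif, searched as TGANTCA, occurred in none of the 4. It did occur in an unprinted window, that of LOC105374284.
LOC124901288 (chr6:26331568-26331817, plus strand): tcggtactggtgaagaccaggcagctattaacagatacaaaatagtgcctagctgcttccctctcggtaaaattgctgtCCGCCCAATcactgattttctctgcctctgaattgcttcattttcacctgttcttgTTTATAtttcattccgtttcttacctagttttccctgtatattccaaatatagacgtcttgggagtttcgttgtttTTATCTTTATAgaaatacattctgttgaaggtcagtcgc
LOC102723575 (chr11:59537152-59537401, plus strand): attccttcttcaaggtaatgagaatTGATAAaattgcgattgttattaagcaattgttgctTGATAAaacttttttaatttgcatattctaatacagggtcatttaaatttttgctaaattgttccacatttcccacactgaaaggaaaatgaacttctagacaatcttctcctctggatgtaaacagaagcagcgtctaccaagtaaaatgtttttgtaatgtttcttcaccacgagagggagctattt
LOC105373195 (chrX:49156279-49156528, minus strand): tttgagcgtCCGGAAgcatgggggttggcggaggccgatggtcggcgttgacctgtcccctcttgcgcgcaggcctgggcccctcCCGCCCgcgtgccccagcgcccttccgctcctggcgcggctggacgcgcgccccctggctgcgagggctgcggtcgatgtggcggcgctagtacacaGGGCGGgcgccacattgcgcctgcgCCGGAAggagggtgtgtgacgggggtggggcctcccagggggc
LINC02917 (chr3:152205428-152205677, minus strand): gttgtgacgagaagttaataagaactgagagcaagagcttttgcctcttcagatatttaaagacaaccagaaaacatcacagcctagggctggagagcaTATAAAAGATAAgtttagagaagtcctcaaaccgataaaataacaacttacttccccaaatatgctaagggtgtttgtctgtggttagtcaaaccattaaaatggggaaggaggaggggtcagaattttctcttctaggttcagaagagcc
The members at these 4 windows were overlapped by both other lists. The first window lay at the cluster of 19 peaks that includes HIST1H4H and held 1 GATA match, 1 SP match and 1 CCAAT match that overlap by letters, and 2 TATA matches, 1 of which overlaps the GATA match by 1 letter. The second lay at the cluster of 13 peaks nearest to OR4D9 and held 2 GATA matches. The third lay at a cluster of 8 peaks 0.574 kb from MAGIX on chromosome X and held 2 ETS and 2 SP matches with 29 CpG dinucleotides. The fourth lay at a member of score percentile 90.2 in a cluster of 7 peaks 37.9 kb from MBNL1, and held 1 TATA match and 1 GATA match side by side. Over the same 250 bases of all 34961 RefSeq promoters, GATA letters occurred in 14.6%, ETS letters in 14.5%, SP letters in 42.7%, CCAAT in 31.97%, TATA letters in 10.7% and AP-1 letters in 6.54%. The 4 windows were chosen after their values were seen, so they give no motif share for the members. Several unprinted windows at members, such as those of LOC105370364, LOC105373281 and LOC124900273, held none of these motifs. A match is a run of letters and not a measured binding site.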

How the data were processed

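Run-on libraries of K562 cells were represented by 3 dREG peak lists, 1 per group of 2 replicates. Per the submitters' processing notes, the tools included fastp 0.20.0, Bowtie2 2.3.5.1, UMI-tools and deepTools 3.1.3 and the build was GRCh38; the dREG version, its thresholds and the pooling of replicates are not given in the sources used here. The deposited score of each peak has no fixed unit and served only to rank peaks within a list. The deposited p-value of each peak, at most 0.0499909, was used only in an alternative with a limit of 0.01. Positions were deposited counting from 0 and are printed counting from 1.

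Overlap meant at least 1 bp shared with any peak of the other list. Shares carry Wilson and differences Newcombe 95% intervals, and score groups were weighted by their number of members. Python 3.11.15, numpy 2.4.6 and pandas 2.3.3 were used, and chaining, overlaps and intervals were tested on simulated data. Genes came from GENCODE release 29, tRNA genes and sequences from RefSeq (GRCh38.p14). The members, gene lists and tests were chosen with earlier results of these data known, and the tRNA comparison after seeing the peaks. Named by rule were the 12 clusters with the most peaks (ties by shorter span), clusters within 100 kb of a listed gene and the 3 with most members in both other lists. Clusters named as extremes of overlap, in runs along a chromosome or beside a printed sequence were chosen after their values were seen. Motif counts at the peaks themselves were not run here, since no genome was used. Alternatives were a 5 kb gap, a 1000 bp window around starts, joined peaks, 50% overlap, lists of equal length, 50 kb for genes and removal of peaks at tRNA genes.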

Additional observations from a re-analysis of the deposited data

Results flagged for a closer look

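Peaks on sequences other than chromosomes 1 to 22 and X entered none of the comparisons. The qPRO-seq 1M list had 220 of them, and 4 chains of 5 or more peaks formed there with 22 peaks in all. The qPRO-seq 250k list had 44 such peaks and 1 chain, and the PRO-seq 1M list had 75 and 0 chains. The chains were noted because they form a signal outside the main measurement, and there was no control sample to set them against.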

How the results depend on the processing

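Of the 56 alternative values computed for the 8 results, 33 counted as kept and 23 as moved. A count was kept within 1.5 times of its reported value, a share within its reported 95% interval, and a difference in overlap where its interval still excluded 0. The number of clusters was 110 with a 5 kb gap, 12 with lists of equal length and 152 with p of at most 0.01. It was 58 with all peaks of the list within 500 bp joined before distal peaks were chosen and chained. The share of members overlapped by PRO-seq 1M and by qPRO-seq 250k was 68.7% and 47.4% with a 5 kb gap, 73.5% and 80.9% with lists of equal length, 47.1% and 30.7% with 50% overlap of both peaks, 57.8% and 39.5% with joined peaks, and 58.9% and 38.8% without peaks at tRNA genes. The share of clusters on ground shared with PRO-seq 1M and with qPRO-seq 250k was 12.7% and 3.64% with a 5 kb gap, 41.7% and 58.3% with lists of equal length, and 16.2% and 5.70% without peaks at tRNA genes. Genes near clusters with a PRO-seq 1M start peak came to 63.6% with a 5 kb gap, 62.1% with p of at most 0.01 and 57.5% with joined peaks. With joined peaks, equal lists or a stricter p, fewer peaks enter the chains. Whether this or anything else caused the moves was not tested. The differences within score groups ranged from 10.5 to 23.7 points for PRO-seq 1M and from 10.8 to 25.8 for qPRO-seq 250k. No paired analysis was possible because each group had 1 list for both replicates, and for the same reason no replicate could be left out. Counts of GATA and AP-1 letters at members, with their alternatives, were not run. Read depth was unknown, so it could not be set beside list length.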
